A study of Oryza sativa with 4 samples.

Results

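The 9 rice genes described here are MADS-box transcription factors of 2 related clades, 4 AP1/FUL-like genes (OsMADS14, OsMADS15, OsMADS18 and OsMADS20) and 5 SEPALLATA-like genes (OsMADS34, OsMADS1, OsMADS5, OsMADS7 and OsMADS8). They were taken by locus identifier from an expression table of 55986 loci, and all 9 were found. The rule that picks them uses no measured value, but the set was proposed with earlier results of these data known. The tested library was made from MIM396 panicles, which carry p35S:MIM396, a transgene under the constitutive 35S promoter that makes a decoy target RNA for the microRNA miR396. It was compared with a library from panicles of the wild type, Yutai B, and the labels put both at the stage when secondary branches develop. A separate pair of libraries from callus, cultured undifferentiated tissue of lines with GRF6-GFP driven by p35S, gave OsGRF6-GFP binding sites with an anti-GFP antibody against a ChIP input. Each of these 4 groups holds 1 library. The sources used here do not give the number of plants per library, their age or whether MIM396 was 1 line or several. No difference between genotypes could therefore be tested, and each one below describes a pair of libraries.

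MADS-box proteins bind DNA as dimers and assemble into larger complexes, and the combination of partners sets which genes a complex acts on. In grasses, AP1/FUL-like genes act in the switch of the shoot apex to an inflorescence meristem, downstream of florigen, the mobile flowering signal made in leaves, and some of them are also transcribed in leaves. SEPALLATA-like proteins, the E class of the floral organ model, hold such complexes together. The LOFSEP branch (OsMADS34, OsMADS1, OsMADS5) is known in rice for panicle branching, spikelet identity and the outer organs of the floret, and the SEP3-like branch (OsMADS7, OsMADS8) for the inner floral organs.

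The libraries held 13125591 reads in MIM396 and 16337525 reads in wild type, recovered from scaled read values. Marker lists separated them. A list of 15 loci put together as panicle meristem genes summed to 941 FPKM (read fragments per unit of locus length and of library size) in MIM396, with a range of 0.103 to 631 and no locus at 0 reads, and to 14.1 FPKM in wild type, with a range of 0 to 6.43 and 7 loci at 0 reads. Its most abundant locus, LOC_Os08g39890, had 631 FPKM in MIM396 and 1.82 FPKM in wild type. Both of its KNOX meristem loci, LOC_Os03g51690 and LOC_Os07g03770, had 3988 and 1002 reads in MIM396 and 0 reads each in wild type. A list of 15 leaf photosynthesis loci summed to 64.2 FPKM in MIM396, with a range of 0.134 to 18.9, and to 101360 FPKM in wild type, with a range of 904 to 17544. It was led by LOC_Os12g17600, with 12 FPKM in MIM396 and 17544 FPKM in wild type, and the list took 0.0109% of the reads in MIM396 and 10.5% in wild type. Not all panicle meristem loci went 1 way: 13 of the 15 had more FPKM in MIM396. LOC_Os03g60430 had 1.65 FPKM in MIM396 and 3.35 FPKM in wild type, and LOC_Os04g32510 had 0.876 and 1.67 FPKM. The 2 AP2 loci of the list summed to 10.4 FPKM in MIM396 and 9.78 FPKM in wild type. The library labelled as wild-type panicle thus lacked reads of both KNOX loci, though not of every listed locus, and was rich in photosynthesis transcripts. Genotype and tissue make-up cannot be told apart in any value below. Fewer cells of a type and less RNA per cell cannot be told apart either. The lists pair loci with names from general knowledge and not from the files.

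All 9 genes had reads in the MIM396 library, and 5 of them had reads in the wild-type library. In MIM396 the 9 genes ran from 1.33 to 97.9 FPKM, and in wild type from 0 to 111 FPKM. OsMADS14 and OsMADS18 were abundant in both libraries, OsMADS15 was abundant in MIM396 and low in wild type, and OsMADS20 and the 5 SEPALLATA-like genes were at or near 0 in wild type. Intervals given below are 95% and cover counting error only, since the reads carry no molecular identifiers and several may come from 1 molecule.

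**Figure D1:**
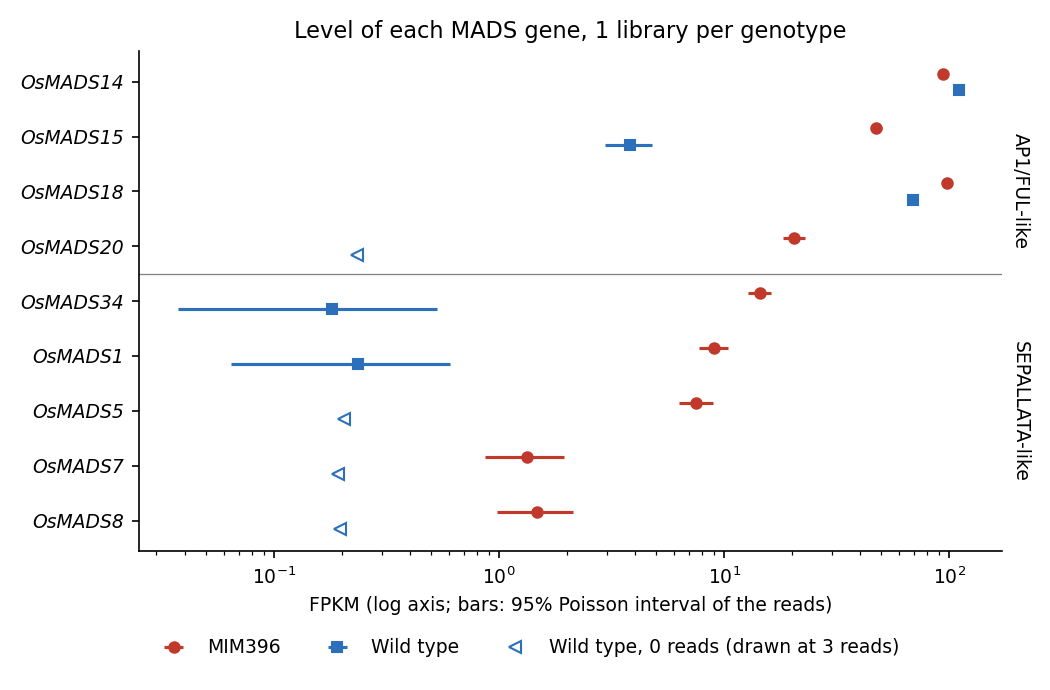
Level of each gene in FPKM (log axis) in the MIM396 library (circles) and the wild-type library (squares), with bars for the 95% Poisson interval of the reads and open triangles, drawn at 3 reads, for genes with 0 reads. OsMADS14 and OsMADS18 lie between 68.8 and 111 FPKM in both libraries, while the SEPALLATA-like genes lie between 1.33 and 14.4 FPKM in MIM396 and at most at 0.236 FPKM in wild type.

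Among the AP1/FUL-like genes, OsMADS14 (LOC_Os03g54160, chromosome 3, 31027478 to 31041569) acts in inflorescence meristem identity. It had 94.0 FPKM (90.8 to 97.3) in MIM396, from 3170 reads, and 111 FPKM (107 to 115) in wild type, from 2997 reads. The levels placed it above 96.6% of loci with reads in MIM396 and above 95.9% in wild type. The ratio of scaled reads, MIM396 over wild type, was 0.845 (0.803 to 0.888), and the log2 ratio of -0.23 became 0.50 with the libraries brought to equal FPKM totals and 0.21 when the 50 top loci of each were dropped first, so its direction depended on the scaling. The expression table gives OsMADS14 the same interval as LOC_Os03g54150, and reads may be divided between them. LOC_Os03g54150 had 685 reads in MIM396 and 1095 reads in wild type, and the reads of both loci together gave a ratio of 0.752 (0.72 to 0.786).

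OsMADS18 (LOC_Os07g41370, chromosome 7, 24788475 to 24793884), which promotes flowering when overexpressed in rice, was the other gene abundant in both libraries. It had 97.9 FPKM (93.7 to 102) in MIM396, from 2033 reads, and 68.8 FPKM (64.8 to 72.8) in wild type, from 1150 reads. The ratio was 1.41 (1.31 to 1.52), under the 2-fold limit, and the log2 ratio of 0.50 became 1.24 with equal totals and -0.12 with scaling to 3 reference gene loci. OsMADS14 and OsMADS18 therefore gave no direction that held under every scaling tried.

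OsMADS15 (LOC_Os07g01820, chromosome 7, 471173 to 477655), a close relative of OsMADS14 that also acts in the identity of the palea, differed far more. It had 47.4 FPKM (44.7 to 50.3) in MIM396, from 1100 reads, and 3.80 FPKM (2.96 to 4.8) in wild type, from 70 reads. The ratio was 12.5 (9.85 to 16.2), and the gene stood above 92.1% of loci with reads in MIM396 and above 43.3% in wild type.

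OsMADS20 (LOC_Os12g31748, chromosome 12, 19106069 to 19115282), the fourth AP1/FUL-like gene, had 328 reads and 20.4 FPKM (18.3 to 22.8) in MIM396. In wild type it had 0 reads (at most 0.288 FPKM by the Poisson interval), where 3 reads would be 0.234 FPKM. Its scaled reads were at least 87.3-fold higher in MIM396 when set against a floor of 3 reads in the wild-type library, and the exact interval of the ratio, which also covers the counting error of the MIM396 reads, began at 70.6.

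The 3 LOFSEP genes had low or no counts in wild type. OsMADS34 (LOC_Os03g54170, chromosome 3, 31048350 to 31055019), also called PAP2, acts in panicle branching and in the step to spikelet identity. It had 14.4 FPKM (12.8 to 16.1) in MIM396, from 296 reads, and 0.181 FPKM (0.0373 to 0.528) in wild type, from 3 reads, a ratio of 78.8 (26.7 to 384). OsMADS34 lies 6780 bp from OsMADS14, whose ratio was 0.845, so these neighbouring MADS genes had very unequal ratios.

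OsMADS1 (LOC_Os03g11614, chromosome 3, 6052749 to 6061369), known for lemma and palea identity and for the determinacy of the spikelet meristem, had 8.99 FPKM (7.75 to 10.4) in MIM396, from 189 reads, and 0.236 FPKM (0.0644 to 0.605) in wild type, from 4 reads. Its ratio was 37.7 (14.5 to 140). OsMADS5 (LOC_Os06g06750, chromosome 6, 3162800 to 3169415), which acts together with OsMADS1 and OsMADS34 in the floret, had 7.51 FPKM (6.31 to 8.88) in MIM396, from 138 reads. In wild type it had 0 reads (at most 0.252 FPKM), where 3 reads would be 0.205 FPKM. Its scaled reads were at least 36.7-fold higher in MIM396 against the floor of 3 reads, and the exact interval began at 29.5.

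The SEP3-like genes were the lowest of the 9 in MIM396. OsMADS7 (LOC_Os08g41950, chromosome 8, 26507179 to 26512261) had 26 reads and 1.33 FPKM (0.869 to 1.95) in MIM396. In wild type it had 0 reads (at most 0.236 FPKM), where 3 reads would be 0.192 FPKM. OsMADS8 (LOC_Os09g32948, chromosome 9, 19653388 to 19659766) had 28 reads and 1.47 FPKM (0.976 to 2.12) in MIM396. In wild type it had 0 reads (at most 0.242 FPKM), where 3 reads would be 0.197 FPKM. Both encode partners for the inner floral organs and act redundantly. Against the floor of 3 reads, the scaled reads of OsMADS7 were at least 6.92-fold and those of OsMADS8 at least 7.45-fold higher in MIM396, and the exact intervals began at 5.24 and 5.67. Of 17410 loci with at least 26 reads in MIM396, 2.64% had 0 reads in wild type, and 4 of the 9 genes did. The limit of 26 was set by the lowest of the 9 genes, so all 9 passed it. The 17410 loci include ones with far more MIM396 reads than these 4 genes, so the share is not a like-for-like background.

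The order of levels differed between the libraries. In MIM396 it ran OsMADS18, OsMADS14, OsMADS15, OsMADS20, OsMADS34, OsMADS1, OsMADS5, OsMADS8 and OsMADS7, and the counting intervals overlapped between OsMADS18 and OsMADS14, between OsMADS1 and OsMADS5, and between OsMADS8 and OsMADS7. Every AP1/FUL-like gene was above every SEPALLATA-like gene there. In wild type it ran OsMADS14, OsMADS18 and OsMADS15, each apart from the next beyond counting error, followed by OsMADS1 and OsMADS34 with overlapping intervals and by the 4 genes with 0 reads, among them the AP1/FUL-like OsMADS20.

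The make-up of the summed level differed accordingly. The 9 genes summed to 293 FPKM in MIM396 and 184 FPKM in wild type. SEPALLATA-like genes took 677 of 7308 reads in MIM396, or 9.26% (8.61 to 9.95%, Clopper-Pearson), and 7 of 4224 reads in wild type, or 0.166% (0.0667 to 0.341%). OsMADS14 and OsMADS18 together took 65.4% of the summed FPKM in MIM396 and 97.7% in wild type. Their joint reads had a ratio of 1.0 (0.962 to 1.04) with the authors' scaling, and this ratio moves with the scaling, as those of the single genes did. OsMADS15 took 16.2% of the summed FPKM in MIM396 and 2.07% in wild type.

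**Figure D2:**
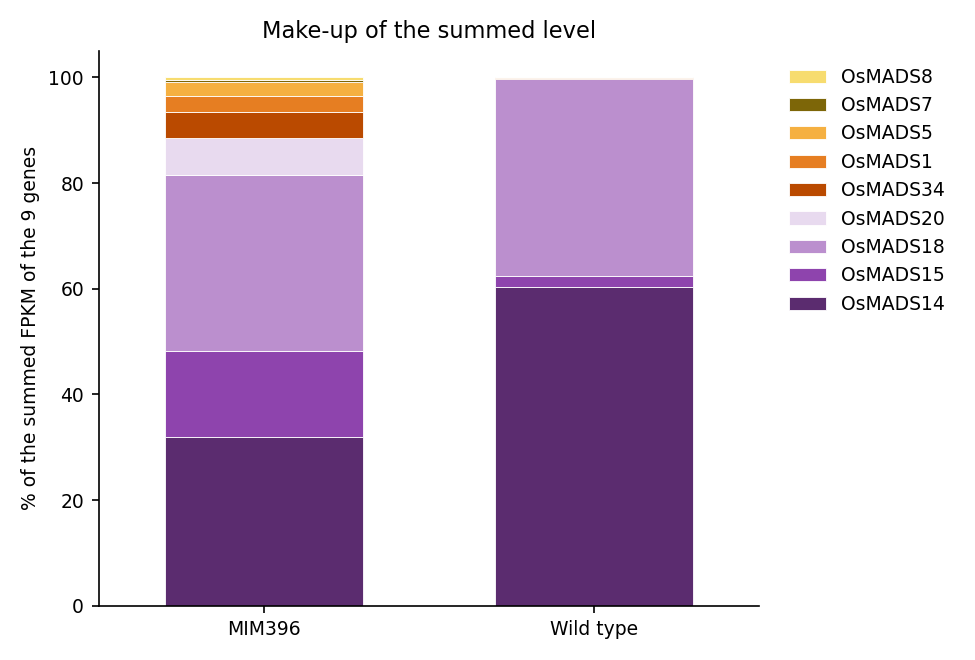
Share of each gene in the summed FPKM of the 9 genes, in percent, in the MIM396 library (left) and the wild-type library (right). OsMADS14 and OsMADS18 fill 97.7% of the wild-type bar and 65.4% of the MIM396 bar, where OsMADS15, OsMADS20 and the SEPALLATA-like genes take the rest.

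Ratios between genes within a library do not depend on how the libraries are scaled, and this comparison was added after the values were seen. OsMADS18 served as the base, since it is abundant in both libraries and shares its interval with no other locus. OsMADS15 stood at 0.484 of the OsMADS18 FPKM in MIM396 and at 0.0552 of it in wild type, and the ratio of the read ratios was 8.89 (6.89 to 11.6, exact conditional interval). OsMADS14 stood at 0.960 of OsMADS18 in MIM396 and at 1.61 of it in wild type, with a ratio of 0.598 (0.547 to 0.654). For OsMADS34 and OsMADS1 the ratios of ratios were 55.8 (18.8 to 273) and 26.7 (10.2 to 99.3). For OsMADS20, OsMADS5, OsMADS7 and OsMADS8, with 0 reads in wild type, the intervals began at 49.9, 20.8, 3.70 and 4.01. OsMADS14 was the only one of the other 8 genes with an interval below 1.

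A locus was counted as higher or lower in MIM396 by size alone, with a log2 ratio of (FPKM + 1) of at least 1 and a mean of at least 1 FPKM over both libraries. Adding 1 FPKM understates the ratios of low genes. By this rule 5 of the 9 genes were higher (OsMADS15, OsMADS20, OsMADS34, OsMADS1 and OsMADS5), none was lower, OsMADS14 and OsMADS18 were neither, and OsMADS7 and OsMADS8 lay under the floor with means of 0.665 and 0.734 FPKM. Among all 19456 loci above the floor, 23.1% were higher and 27.3% lower, 50.4% in all. Of the 5 higher genes, OsMADS20, OsMADS34, OsMADS1 and OsMADS5 passed the floor through the MIM396 library alone, so they could only have been counted as higher. Without the floor 7 of the 9 genes were higher, against 17.8% of 27255 loci with reads. A locus under 1 FPKM in both libraries cannot reach the limit with 1 FPKM added, so this share is not a like-for-like background. The 2 added genes, OsMADS7 and OsMADS8, had 0 reads in wild type and could not have been counted as lower.

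**Figure D3:**
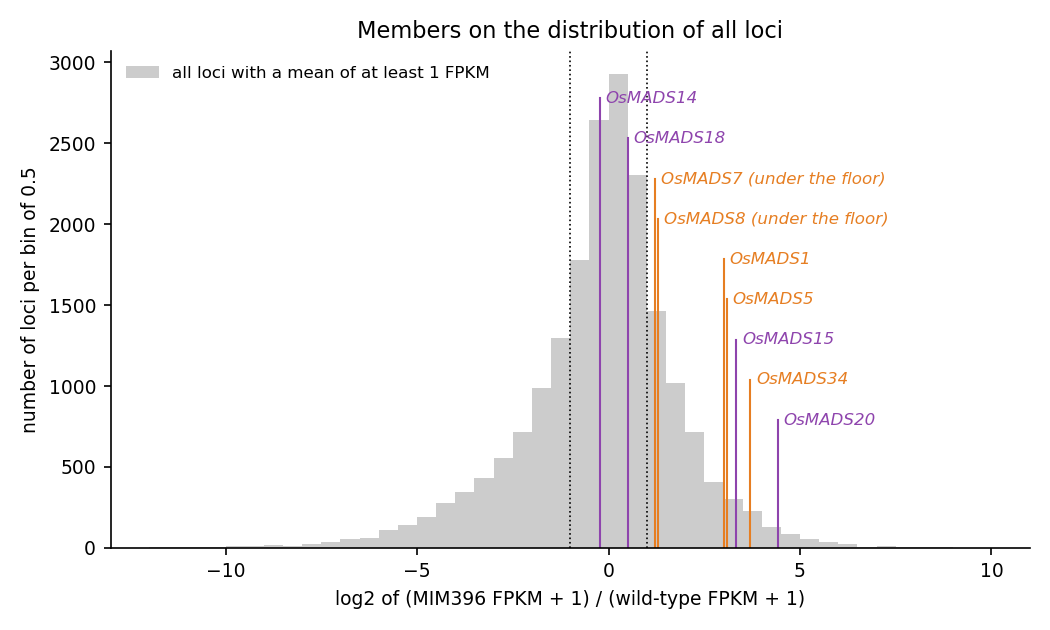
Histogram of the log2 ratio of (FPKM + 1), MIM396 over wild type, for every locus above the floor of 1 FPKM on average (grey), with a line for each gene (purple for AP1/FUL-like, orange for SEPALLATA-like) and dotted lines at the limits of -1 and 1. OsMADS14 at -0.23 and OsMADS18 at 0.50 lie in the centre, and the 5 genes counted as higher lie between 3.01 and 4.42.

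As a description of the list, the 9 genes had a median log2 ratio of 3.01 with no floor, beside -0.01 for all 27255 loci with reads. With the genes at 0 reads set to their floor-based bounds on the scaled-read scale, the median of the 9 was 3.64. The share of loci counted as higher depended on the scaling: 4493 were higher and 5310 lower with the authors' scaling, 7844 and 3707 with equal totals, 6284 and 4217 when the top loci were dropped first, and 2904 and 7464 with scaling to the reference gene loci. The median log2 ratio of all loci above the floor, 0.00 with the authors' scaling, moved with it, to 0.68, 0.41 and -0.58. Measured from that median, OsMADS15 lay between 3.31 and 3.35 over 5 scalings, OsMADS18 between 0.46 and 0.56, and OsMADS14 between -0.28 and -0.18. Each scaling multiplies a whole library by 1 factor, which nearly cancels against the median for abundant genes. Low genes spread more, as for OsMADS20 (4.1 to 4.7) and OsMADS7 (0.77 to 1.63). OsMADS15, OsMADS20, OsMADS34, OsMADS1 and OsMADS5 were past the limit, on the higher side, under each of the 5 scalings. The scalings moved the libraries by only -0.64 to 0.75 in log2 against the authors' scaling, so none could bring these genes under it.

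**Figure D4:**
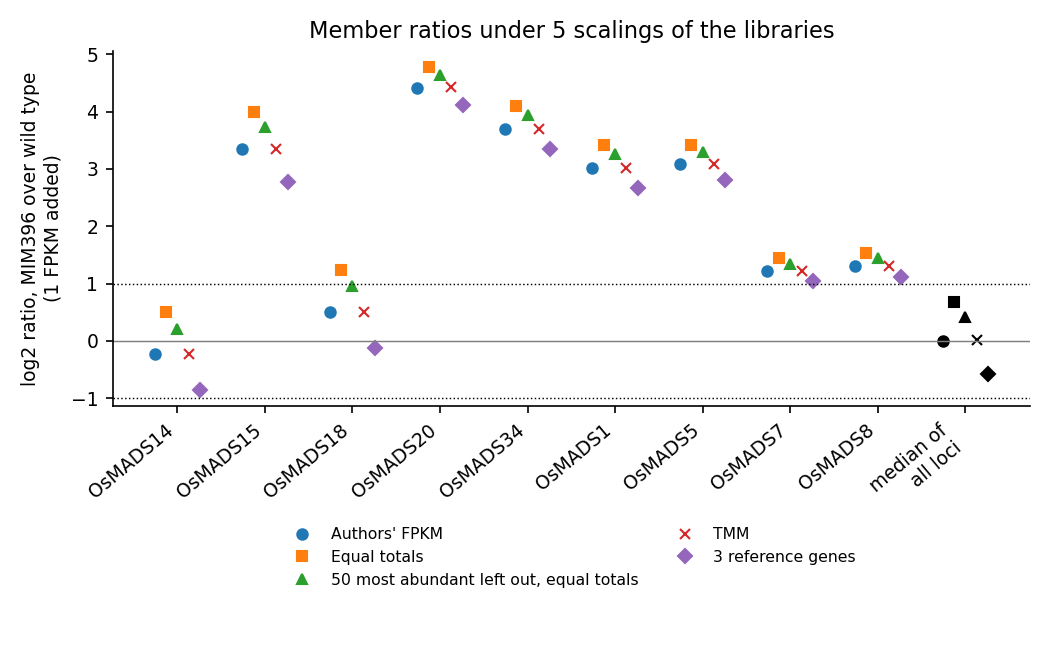
Log2 ratio of (FPKM + 1), MIM396 over wild type, of each gene under 5 scalings of the libraries (symbols), with the median of all loci above the floor in black. OsMADS14 runs from -0.86 to 0.50 and OsMADS18 from -0.12 to 1.24, while the other 7 genes stay above 1.

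An FDR, a p-value corrected over many loci, under 0.05 stands beside 2 of the 9 genes in the authors' deposited table. In the authors' deposited table, OsMADS34 had an FDR of 0.000815 with a log2 ratio of 6.31, and OsMADS1 an FDR of 0.00542 with a log2 ratio of 5.25. By the authors' deposited values, 1094 of all 55986 loci, or 1.95%, had such an FDR and were higher in MIM396. Only 27255 of the 55986 loci had reads, as all 9 genes did, so the share among loci with reads was larger. The authors' deposited table gave OsMADS15, with the larger read counts, an FDR of 0.151, and gave the genes with 0 reads in wild type values of 0.0817 (OsMADS20), 0.106 (OsMADS5), 0.214 (OsMADS7) and 0.145 (OsMADS8). It gave OsMADS14 0.933 and OsMADS18 0.792. The sources used here do not name the test behind these values.

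Other MADS genes and regulators were read from lists of loci. Of 10 loci listed as floral organ MADS genes, 6 were higher in MIM396, 1 was lower and 3 lay under the floor, with a median log2 ratio of 2.13. The most abundant of the 10, LOC_Os01g52680, had 298 FPKM in MIM396 and 0.319 FPKM in wild type. The 3 B-class loci, of petal and stamen identity, summed to 66.1 FPKM in MIM396 and 10.9 FPKM in wild type. The 2 AGL6-like loci, the clade closest to the SEPALLATA genes, summed to 9.23 FPKM in MIM396 and had 0 reads in wild type, as OsMADS5 did. The 1 lower locus, the C-class locus LOC_Os01g10504, had 0.214 FPKM in MIM396 and 4.62 FPKM in wild type, and the 2 D-class loci had 4 reads in MIM396 and 1 read in wild type in all. The lower locus, the AGL6-like loci and LOC_Os01g52680 passed the floor through 1 library alone, so their direction was fixed. In MIM396, where OsMADS7 and OsMADS8 had 1.33 and 1.47 FPKM, no C- or D-class locus exceeded 0.214 FPKM.

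The 5 loci listed as SVP-like and SOC1-like MADS genes, which act in flowering time and meristem phase, all had at least 2.46 FPKM in both libraries. Of these, 1 was higher by the size rule and none lower, against 23.1% and 27.3% of all loci. The 3 SVP-like loci had a median log2 ratio of 0.87 and the 2 SOC1-like loci one of -0.96. Among 7 loci listed as florigen genes, their bZIP partner and their TFL1-like antagonists, 3 were higher and 2 lower. The 2 lower ones were the florigen loci, with 0 reads each in MIM396 and a sum of 14.1 FPKM in wild type, while the bZIP locus LOC_Os09g36910 had 27.9 FPKM in MIM396 and 0.117 FPKM in wild type. The 4 TFL1-like loci summed to 26.6 FPKM in MIM396 and 1.67 FPKM in wild type. Of the 15 panicle meristem loci, 9 were higher, none lower, 3 neither and 3 under the floor, and all 15 leaf photosynthesis loci were lower. Listed loci near 0 in 1 library passed the floor through the other library alone, so their direction was fixed. These included both KNOX loci and LOC_Os04g51000, with 0 reads in wild type, and both florigen loci, with 0 reads in MIM396. The ratios of OsMADS15, OsMADS20 and the SEPALLATA-like genes lay on the same side as the meristem list and opposite to the leaf list, and the part of tissue make-up in them was not tested.

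**Figure D5:**
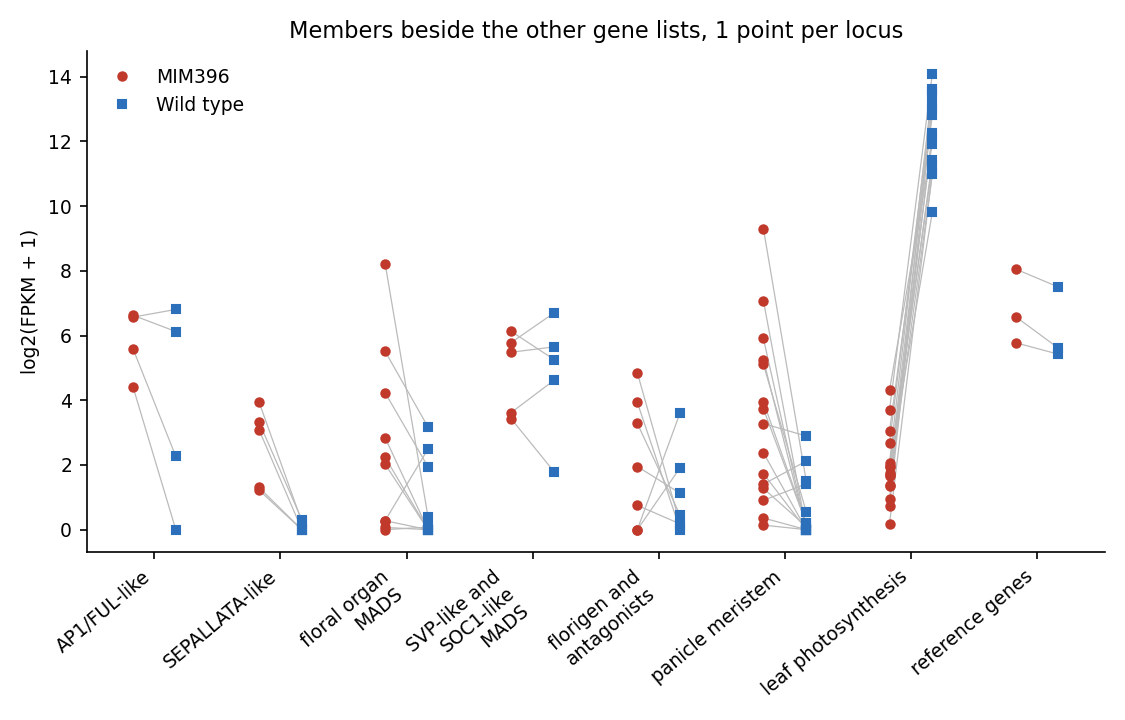
Level of each locus as log2(FPKM + 1) in the MIM396 library (circles, left) and the wild-type library (squares, right), joined by lines, for the 2 clades and 6 other lists. The SEPALLATA-like genes reach 14.4 FPKM in MIM396 and at most 0.236 FPKM in wild type, where the leaf photosynthesis loci reach 904 to 17544 FPKM.

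The 3 loci listed as reference genes (LOC_Os03g50885, an actin, LOC_Os01g22490, a ubiquitin, and LOC_Os02g42314, a ubiquitin-conjugating enzyme) had 95, 265 and 53.9 FPKM in MIM396 and 47.8, 180 and 41.9 FPKM in wild type. They were higher in MIM396 by 1.97-, 1.45- and 1.27-fold in scaled reads, which brackets the 1.41-fold of OsMADS18. OsMADS14, at 94.0 FPKM in MIM396 and 111 FPKM in wild type, was close to the actin locus in MIM396 and above it in wild type.

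For each gene, the nearest of 37 loci in the panicle and floral lists was found by distance on log2(FPKM + 1) over the 2 libraries, a measure that rests on 2 points only. OsMADS34 lay 0.04 from LOC_Os04g46580, listed as an SBP-box gene, with 14.5 FPKM in MIM396 and 0.149 FPKM in wild type. OsMADS1 lay 0.14 from the TFL1-like locus LOC_Os04g33570, and OsMADS5 lay 0.25 from the AGL6-like locus LOC_Os02g45770. OsMADS7 and OsMADS8 lay 0.11 and 0.10 from LOC_Os06g40780, listed as a GRAS gene, and OsMADS20 lay 0.46 from the bZIP locus. The other AP1/FUL-like genes had no neighbour that close: OsMADS14 lay 0.79 from the SOC1-like locus LOC_Os10g39130, OsMADS15 lay 0.92 from the B-class locus LOC_Os06g49840, and OsMADS18 lay 1.0 from the SVP-like locus LOC_Os02g52340. Genes near 0 in wild type share that level with many listed loci, so their small distances rest mainly on the MIM396 level. The contrast is therefore not one of likeness alone.

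The callus binding data address whether OsGRF6-GFP occupied these genes. The authors' list placed none of its 142 peaks at any of the 9 genes, within a window of 3 kb on either side, and 0.313% of all loci in the expression table had a peak. No listed peak lay within 10 kb of a gene of the 9 either. The nearest was peak 126 (chromosome 7, 542587 to 543595), 64.9 kb from OsMADS15. Peak 74 (chromosome 3, 31553176 to 31554279) lay 498 kb from OsMADS34 and 512 kb from OsMADS14, and peaks lay 438 kb from OsMADS18 and 478 kb from OsMADS5. For OsMADS7, OsMADS8, OsMADS1 and OsMADS20 the distance was 2294, 2257, 3525 and 4975 kb. The list holds gene-assigned peaks of 1 callus library, so it says nothing of binding in panicles. A peak assigned to no gene would be missing from it, so the 10 kb check and the distances cover listed peaks only.

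The position of the genes on the chromosomes was set beside the levels of their flanks. Of 81 distinct loci among the 5 nearest on each side of the 9 genes, 46 were above the floor, and 28.3% of these were higher in MIM396 and 19.6% lower. The corresponding shares of all loci above the floor were 23.1% and 27.3%. The flanks ranged from OsMADS34, where none of 4 loci above the floor was past the limit, to OsMADS8, where 3 of 5 were higher and 1 lower, and OsMADS18, where 1 of 6 was higher and 3 were lower.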

How the data were processed

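Expression was measured by RNA sequencing in 1 MIM396 and 1 wild-type panicle library, and binding by ChIP sequencing in callus. A TruSeq kit was used for the RNA libraries, per the labels' protocols, and FastQC and Bowtie were used, per the submitters' processing notes. The sources used here give no counting tool, genome build, annotation release or strand setting, and coordinates are those of the authors' files. The authors computed the deposited FPKM, per the file headers. The deposited read signal, named as counts per the file headers, was read counts multiplied by 1 factor per library, 0.844 in MIM396 and 1.06 in wild type, and after division by it, 97.7% and 97.6% of positive values lay within 0.01 of a whole number. The FDR (an adjusted p-value) and log2 ratio deposited by the authors are quoted as theirs, and deposited peaks give positions only.

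Ratios of scaled reads carry 95% exact conditional binomial intervals, and FPKM exact Poisson intervals. With 1 library per group, no test and no count model was run. Scalings were equal FPKM totals, the same without the 50 most abundant loci of each library, TMM factors (edgeR 4.0.16) on recovered reads, and the geometric mean of 3 reference loci. Python 3.11.15, numpy 2.4.6, pandas 2.3.3, scipy 1.17.1 and matplotlib 3.10.9 were used. The size rule and intervals were tested on simulated Poisson reads, which carry no variation between libraries. Coverage of the intervals was checked only at loci simulated with many reads in both libraries. It was not checked at counts as low as those of OsMADS20 and the 5 SEPALLATA-like genes in wild type. The MIM396 reads of OsMADS7 and OsMADS8 were also below the range checked. The 9 genes, the lists and the limits were chosen with earlier results of these data known. The rule for named loci took all 9 genes, the nearest listed locus to each, and, of each other list, the 5 most abundant loci and loci counted as higher or lower that averaged 10 FPKM or more, up to 8, and the text names some of these. RefSeq (assembly ASM3414082v1) carries all 9 gene names on the chromosome of the locus used. No sequence is printed, because none was used here.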

Additional observations from a re-analysis of the deposited data

How the results depend on the processing

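With 1 library per group, no library could be left out. No paired analysis was possible because each group holds 1 library, and depth limits only the genes at 0 to 4 reads in wild type. Between 5 and 7 of the 9 genes were higher in MIM396 and none was lower with 0.1 FPKM added, equal FPKM totals, the 50 most abundant loci left out, TMM, no floor, a log2 limit of 2, and scaling to 3 reference loci, the last chosen after seeing the data. The 2 extra genes without the floor were OsMADS7 and OsMADS8, and the 1 extra gene with equal totals was OsMADS18. The median log2 ratio of the 7 genes above the floor was 3.09, and 4.76 with 0.1 FPKM added. It was 3.42 with equal totals, 3.29 without the most abundant loci and 2.77 with the reference loci. Medians of all loci above the floor were 0.00 with the authors' scaling, and 0.68, 0.41 and -0.58 with these 3 scalings. OsMADS20, OsMADS34, OsMADS1 and OsMADS5 passed the floor through the MIM396 library alone, so a positive median was built in. The background moved too. Over all loci above the floor, 4493 of 19456 were higher with the authors' scaling and 7844 of 19498 with equal totals. The counts were 6284 of 19373 without the most abundant loci, 4515 of 19453 with TMM and 2904 of 19486 with the reference loci. With 0.1 FPKM added, 4982 of 19456 were higher, and a log2 limit of 2 left 2014 higher and 3029 lower. Without the floor, 4841 of 27255 loci with reads were higher, a total that includes loci too low in both libraries to reach the limit. None of the 5 genes counted as higher by the size rule with the authors' scaling changed direction under these scalings or constants. The scalings tried moved the libraries too little to reverse any of these 5 genes. For OsMADS20 and OsMADS5, with 0 reads in wild type, no scaling or constant of any size could reverse the direction. OsMADS18, counted as higher only with equal totals, had a log2 ratio of -0.12 with the reference loci. Summing OsMADS14 with the locus of its interval, also added after seeing the data, gave a log2 ratio of -0.33. The log2 ratio of FPKM plus the added constant ranged from 4.12 to 7.68 for OsMADS20 and from 3.35 to 5.69 for OsMADS34 over 5 alternatives, with the highest values at 0.1 FPKM added. No gene came within 10 kb of a listed peak.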
